A study of Campylomormyrus compressirostris and Campylomormyrus rhynchophorus and Campylomormyrus compressirostris x Campylomormyrus rhynchophorus with 15 samples.

Results

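Gene expression in the electric organ was compared between juvenile *Campylomormyrus rhynchophorus* (*rhy*) and juvenile *C. compressirostris* (*com*), the parental species of a hybrid cross. The comparison rests on the 5 libraries titled *rhy* and the 5 titled *com*, 10 of the 15 juvenile libraries, and the 5 hybrids were left out. The labels call the fish rhy49, rhy50, rhy51, rhy52 and rhy53 and com104, com121, com123, com124 and com125, and values below follow this order. All 10 fish were bred and raised in captivity at 1 university, no treatment is named, and the labels give each a body length of 6 cm but neither an age nor a sex. Each library holds the poly(A) RNA of the electric organ of 1 fish, and nothing was pooled. The labels do not say whether the fish of a species share parents, so p-values measure the spread between these fish.

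Mormyrid fish find their way and communicate with electric organ discharges (EODs), weak pulses made by electrocytes, large flat cells that derive from muscle. An electrocyte fires when voltage-gated sodium channels open and recovers when potassium channels carry charge out, so the kinds and amounts of its channels shape the pulse. The species differ in this pulse, which is short in *com* and much longer in *rhy*. In the juvenile organ the channel genes *SCN4AA* and *KCNA7A_1* had reads in every fish. *SCN4AA*, the sodium channel gene of electric organ, had 491, 527, 499, 372 and 467 TPM in *rhy*, against 2215, 1221, 1166, 1469 and 1094 TPM in *com* (TPM is transcript abundance corrected for gene length and library size). *KCNA7A_1*, a voltage-gated potassium channel gene, had 50.5, 40.1, 61.7, 41.7 and 71.3 TPM in *rhy*, against 1722, 1293, 1412, 1718 and 1340.5 TPM in *com*.

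Library totals were 12502114 to 13927972 counts in *rhy*, against 8346577 to 11549622 counts in *com*, so the totals of the species did not overlap. Reads of both species were counted on gene models of the *com* genome, so a lower level in *rhy* and a lower share of *rhy* reads assigned to a model cannot be told apart, nor can either be told apart from fewer cells of a type or less RNA per cell. Fish of 1 species resembled each other more than fish of the other: the Spearman correlation over the genes tested was 0.965 to 0.977 among the 10 pairs of *rhy* fish, 0.866 to 0.889 among the 25 pairs of a *rhy* with a *com* fish, and 0.930 to 0.970 among the 10 pairs of *com* fish. The spread between fish was narrower in *rhy*, where the coefficient of biological variation was 0.257, than in *com*, where it was 0.356. Fish com104 stood apart from the other *com* fish in 568 of 17514 genes (3.24%), more often than any other fish, whose counts were 103 to 368 genes. The most abundant gene model, which has no name here, was the same in 9 of 10 fish, and its share of all counts was 5.18, 2.95, 4.73, 4.96 and 2.64% in *rhy*, against 3.63, 19.3, 15.4, 9.7 and 10.9% in *com*. Its share in com104 lay within the *rhy* range. Averaged over fish, the share of the leading model was 4.12% ± 1.17 in *rhy*, where fish rhy50 had another model in the lead, and 11.8% ± 5.94 in *com* (SD, n = 5 each, exact two-sided permutation test, p = 0.0317).

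The test was run on 17514 of 34492 gene models, those that reached more than 10 counts in 2 or more of the 10 libraries, and 4056 of them differed, 1681 higher in *rhy* and 2375 lower. A gene was called when edgeR's quasi-likelihood test gave an adjusted p under 0.05 and the log2 fold change of *rhy* over *com* lay beyond 1. The background share of calls was therefore 23.2%, with 9.6% of all genes tested called higher in *rhy* and 13.6% called lower. Genes called higher made up 41.4% of the calls. On TPM as deposited, tested with limma, they made up 55.2% (1849 higher and 1498 lower), on a scale where the median gene shifted by 0.161 log2 units relative to the main scale. With each library's TPM rescaled by the median ratio of its genes to their geometric mean over libraries, this share was 44.2%. TPM entered as log2(TPM + 1), which draws the fold changes of genes at low levels towards 0. No gene was called in opposite directions on these scales. Without the fold limit, 7794 genes (44.5%) passed the test, 3700 of them higher (21.1%) and 4094 lower (23.4%). Changes of large size were found in both directions. The log2 fold change lay beyond 3 for 366 called genes higher in *rhy* and for 461 lower, and beyond 5 for 131 and for 159 genes. These counts include genes at or near 0 in 1 species, for which the size of the change is poorly determined. *DUOX1*, at 0 in *com*, had a log2 fold change of 6.47, while a floor on its counts gives at least 14.5-fold. The levels of the fish, in CPM (counts relative to the library total, scaled by TMM), did not overlap between the species for 5523 genes (31.5% of those tested), in 2735 of which *rhy* lay above and in 2788 below *com*. With every library thinned to the smallest total, 3888 genes were called, 3731 of them among the 4056.

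**Figure D1:**
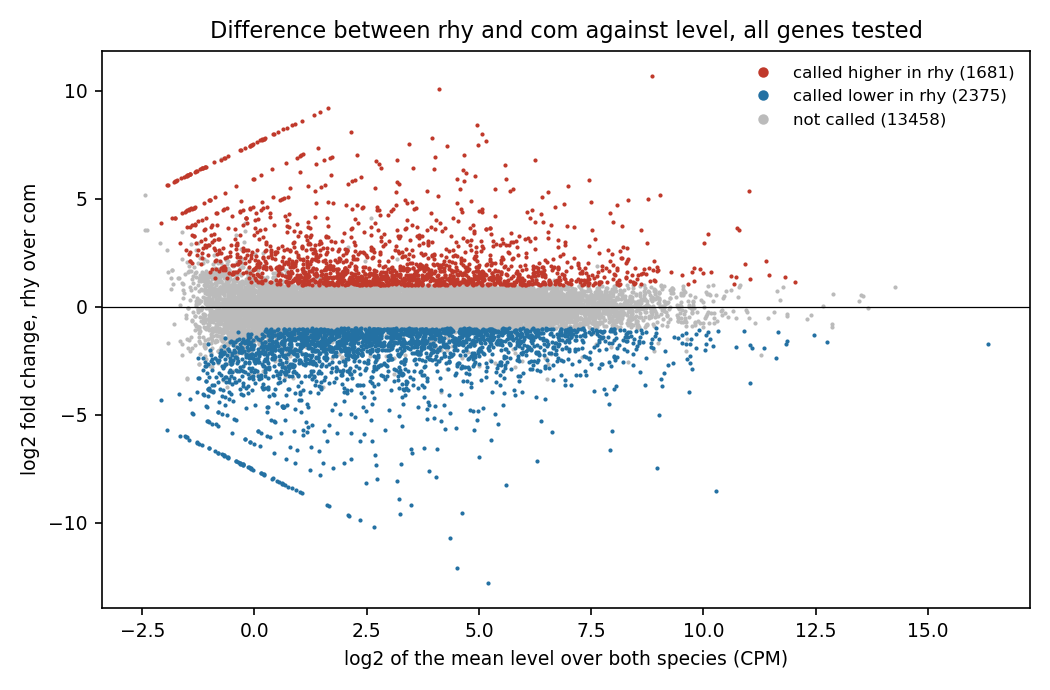
Each point is 1 of 17514 genes tested, with the log2 of its mean level over both species (CPM) on the x axis and its log2 fold change of *rhy* over *com* on the y axis. The 1681 genes called higher in *rhy* and the 2375 called lower lie at all levels, and the outermost slanting lines of points at low levels are genes at 0 in all fish of 1 species.

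Some of these calls were of genes that reached the count minimum in 1 species only. Among the 15153 genes that had 2 or more libraries above 10 counts in each species, 19.9% were called, 1201 higher in *rhy* and 1819 lower. A further 1312 genes passed the filter through *rhy* libraries alone and 480 of them were called higher, while 803 passed through *com* libraries alone and 554 were called lower. The called genes of these 2 sets passed only through the species where they are high, so their calls add no evidence on direction. The count minimum was not scaled to library size and the *rhy* libraries were larger. The sizes of the 2 sets are therefore not a comparison of the species. Among the called genes described below, *DUOX1*, *GPR39*, *MST1R*, *MYO5C*, *SDR39U1* and *TYRP1* passed through *rhy* libraries alone. *LCP1*, *KIAA1257*, *TRIM39*, *DNALI1*, *PDE6A*, *MYOCD*, *SNAI3*, *HPGD*, *WDHD1* and *SLC8A1* passed through *com* libraries alone. The unnamed models given by identifier below also belong to these sets. There were 59 genes at 0 in all 5 *com* fish and 65 at 0 in all 5 *rhy* fish. With the genes split into 5 equal bins of level, the share called was 27.0% in the lowest, 21.7% in the highest and 17.96% in the bin next to it. In 5 bins of effective length it was 26.0% for the shortest and 22.3% for the longest genes.

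The gene models carry no names in the files, and names came from the study's tables of genes linked to the EOD. These name 140 of the genes tested, of which 26 were called higher in *rhy*, 52 lower and 62 not called. Most of these entries (102 tested) were chosen by the study for a difference linked to EOD duration in these fish together with hybrids and adults. The study also required them to be in its sets of genes that differ between juveniles and adults. Their share of calls (64.7%) describes that choice and is not independent evidence. The other 38 come from a table on allele-specific expression, and 31.6% of them were called, 3 higher and 9 lower. That table is a choice too: it holds only part of the genes with fixed sequence differences between the species. They are those whose *com* allele share changed beyond a set limit between juvenile and adult hybrids. The table also marks *HIP1* and *PPP1R3A* as EOD candidates. The median log2 fold change over the 140 genes was -0.26, beside -0.033 over all genes tested. The functional lists below draw on both kinds of entry, so their counts, medians and sums carry the study's choice too. Over all genes tested 9.6% were called higher in *rhy* and 13.6% lower, which is the background for each count below.

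**Figure D2:**
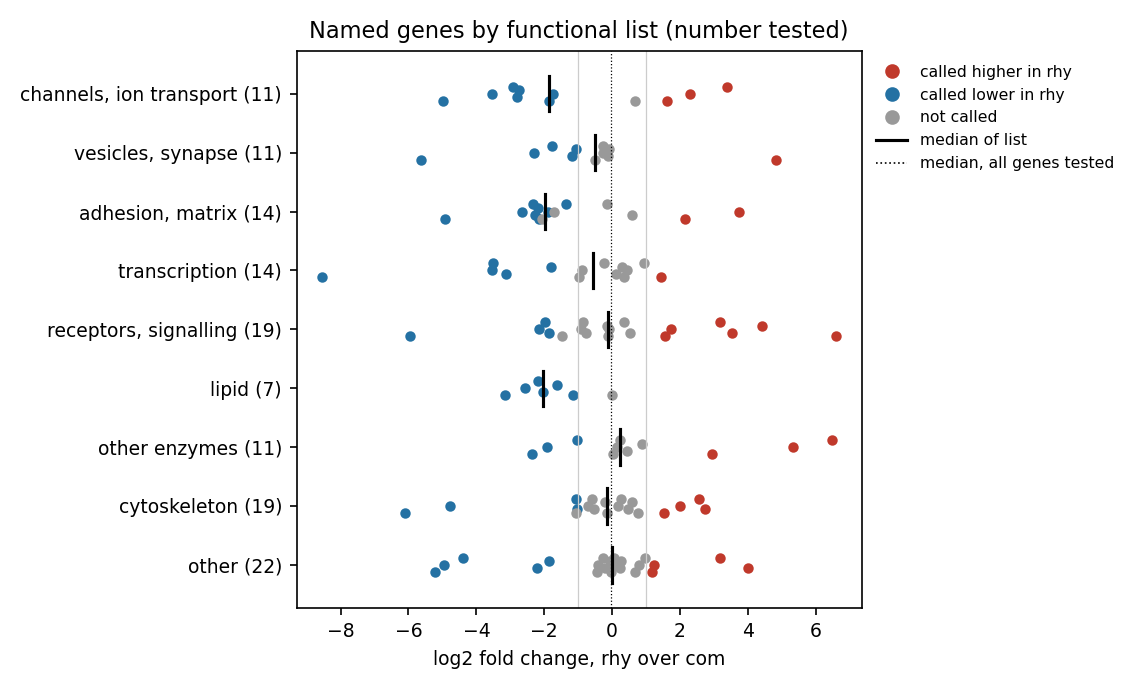
The log2 fold change of *rhy* over *com* (x axis) is drawn for the named genes tested, 1 point per gene, in 9 functional lists, with a bar at the median of each list and a dotted line at the median of all genes tested. The medians of the channel, adhesion and lipid lists lie at -1.87, -1.98 and -2.03, and the lipid list has no gene called higher. Most of the genes drawn were chosen by the study for a difference linked to EOD duration.

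Ion channel and ion transport genes changed in both directions, with an inward rectifier potassium channel far higher in *rhy* and a voltage-gated potassium channel far lower. Of 11 genes tested, 3 were called higher in *rhy*, 7 lower and 1 was not called, with a median log2 fold change of -1.87. *KCNJ2*, which encodes the inward rectifier Kir2.1 that helps to set the resting potential, had 2212, 2301, 1472, 2486 and 1564 CPM in *rhy*, against 362, 109, 144, 169 and 175 CPM in *com* (log2 fold change 3.39, SE 0.32, adjusted p = 7.90e-06). Every *rhy* fish lay above every *com* fish, and com104 was the highest of the *com* fish. *KCNA7A_1* was the reverse, with 30.7, 23.01, 35.7, 26.5 and 41.7 CPM in *rhy*, against 1111, 847, 993, 1126 and 955 CPM in *com* (log2 fold change -5.00, SE 0.19, adjusted p = 1.41e-08). The lowest *com* fish thus lay more than an order of magnitude above the highest *rhy* fish. The sodium channel gene *SCN4AA* had 1012, 1042, 988, 806 and 932 CPM in *rhy*, against 4819, 2687, 2762, 3229 and 2625 CPM in *com* (log2 fold change -1.75, SE 0.18, adjusted p = 1.58e-05), again with no overlap and with com104 on top.

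Set against each other per length, these 3 genes gave ratios that did not overlap between the species. *KCNJ2* over *KCNA7A_1* in TPM was 32.8, 44.97, 18.6, 42.6 and 16.98 in *rhy*, against 0.149, 0.0589, 0.0662, 0.069 and 0.084 in *com*. In each *rhy* fish the inward rectifier was thus the more abundant of the pair, and in each *com* fish the voltage-gated channel was. The ratio of *KCNJ2* over *SCN4AA* was 3.37, 3.42, 2.3, 4.77 and 2.59 in *rhy*, against 0.116, 0.0624, 0.0802, 0.0807 and 0.103 in *com*, so that *KCNJ2* exceeded the sodium channel in *rhy* only. *SCN4AA* over *KCNA7A_1* was 9.72, 13.2, 8.08, 8.93 and 6.54 in *rhy*, against 1.29, 0.944, 0.826, 0.855 and 0.816 in *com*. *SCN4AA* and *KCNA7A_1* were lower in *rhy*, *KCNA7A_1* by more, while *KCNJ2* was higher. These ratios are a description of the 3 genes and were not tested.

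The other 8 channel genes had a lower level per length (TPM) than these 3 in every fish. *GRIA3*, an AMPA-type glutamate receptor subunit, had 7.19, 6.22, 5.65, 6.45 and 5.41 CPM in *rhy*, against 48.1, 39.6, 48.6, 42.3 and 39.1 CPM in *com* (log2 fold change -2.81, SE 0.12, adjusted p = 3.66e-08), tightly grouped in both species. *KCNQ5A*, a voltage-gated potassium channel of the KCNQ family, had 1.67, 0.898, 1.95, 0.854 and 0.989 CPM in *rhy*, against 15.8, 6.04, 4.61, 11.8 and 10.5 CPM in *com* (log2 fold change -2.93, SE 0.38, adjusted p = 8.02e-05). *CACNA2D1*, which encodes the alpha-2-delta subunit of calcium channels, had 0, 1.17, 0.135, 1.09 and 0.0659 CPM in *rhy*, against 5.14, 5.57, 7.11, 3.52 and 7.69 CPM in *com* (log2 fold change -3.55, SE 0.70, adjusted p = 0.0016). Its reads were few in *rhy*, and in fish rhy49 there were none. *NALCN*, the sodium leak channel, (0.659 to 2.8 CPM in *rhy*, against 2.12 to 10.01 CPM in *com*, log2 fold change -1.87, SE 0.47, adjusted p = 0.0071) and *SLC8A1*, a sodium-calcium exchanger, (0 to 0.691 CPM in *rhy*, against 0.454 to 1.7 CPM in *com*, log2 fold change -2.75, SE 0.95, adjusted p = 0.0342) were called lower although fish of the species overlapped. Neither call held in limma on TPM, where *NALCN* stood at -0.83 and *SLC8A1* at -0.88. The *SLC8A1* call was also lost without any 1 of rhy49, rhy51, rhy52, rhy53, com121, com123 and com125 (adjusted p of 0.0539 to 0.0732), and fish rhy50 alone stood apart in *rhy* with 0.691 CPM. *SLC8A1* passed the filter through *com* libraries alone. Higher in *rhy* were *SLC24A2*, a potassium-dependent sodium-calcium exchanger, with 15.1, 9.6, 13.3, 12.9 and 18.3 CPM in *rhy*, against 2.21, 1.42, 4.08, 4.09 and 2.37 CPM in *com* (log2 fold change 2.30, SE 0.29, adjusted p = 6.82e-05), and *ATP13A2*, a lysosomal P-type ATPase that moves polyamines, with 10.6 to 13.3 CPM in *rhy*, against 3.16 to 5.79 CPM in *com* (log2 fold change 1.63, SE 0.19, adjusted p = 3.98e-05). The exchanger genes *SLC24A2* and *SLC8A1* were called in opposite directions, but the *SLC8A1* call adds no evidence on direction. *PKD1*, a polycystin, had 149.9 to 197 CPM in *rhy*, against 78.5 to 127 CPM in *com* with no overlap, but its log2 fold change of 0.68 was under the limit.

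**Figure D3:**
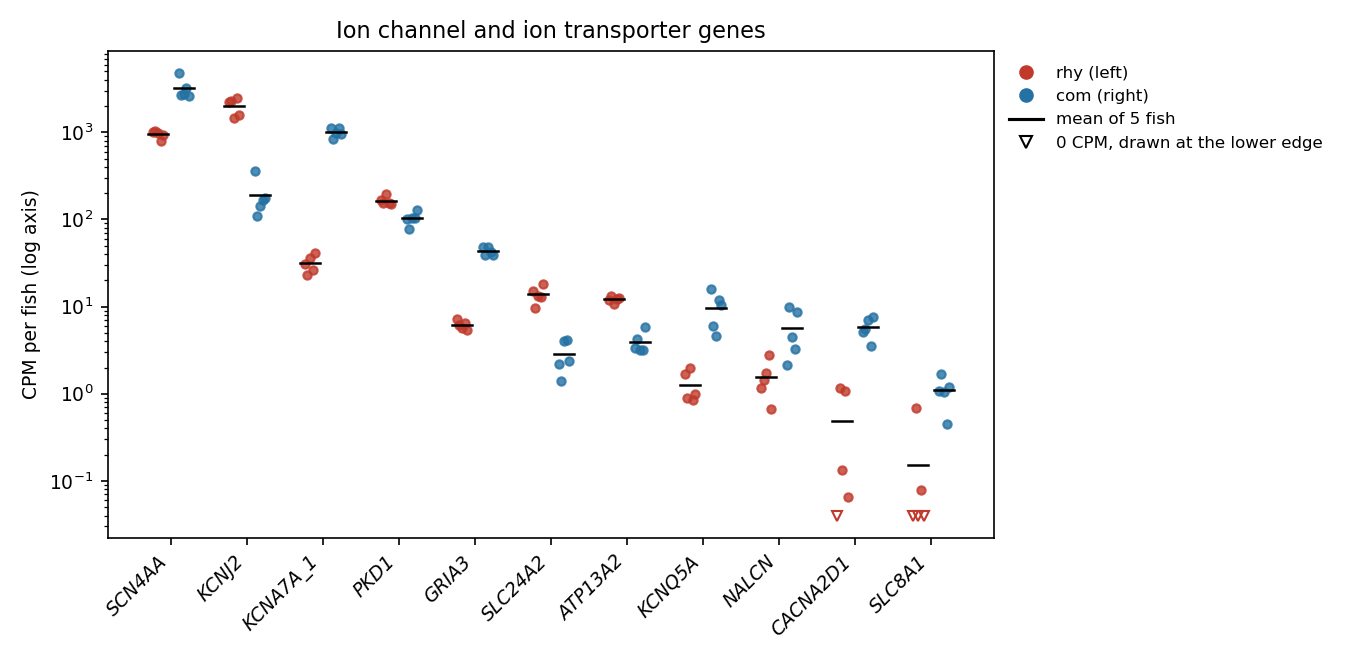
CPM per fish (y axis, log scale) is plotted for 11 ion channel and ion transport genes, with the 5 *rhy* fish to the left and the 5 *com* fish to the right of each gene, a bar at the mean of 5 fish and open triangles for fish at 0. *KCNJ2* stands at 1472 to 2486 CPM in *rhy* and 109 to 362 CPM in *com*, and *KCNA7A_1* at 23.0 to 41.8 CPM in *rhy* and 847 to 1126 CPM in *com*.

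Genes of vesicles and synapses were mostly lower in *rhy* or not called, with 1 gene far higher. Of 11 tested, 1 was called higher, 5 lower and 5 not, with a median log2 fold change of -0.49. *SYNGR3*, a synaptic vesicle protein, had 342, 354, 303, 409 and 327 CPM in *rhy*, against 15.1, 7.84, 11.5, 13.3 and 12.9 CPM in *com* (log2 fold change 4.84, SE 0.18, adjusted p = 1.41e-08). The 5 fish of each species were close together and the gap between the species was wide. *CPNE7*, a copine that binds membranes in response to calcium, had 0.726, 1.24, 0.807, 0.466 and 1.12 CPM in *rhy*, against 48.3, 37.1, 79.04, 33.2 and 23.7 CPM in *com* (log2 fold change -5.63, SE 0.38, adjusted p = 6.16e-07). *DLGAP2*, a scaffold protein of the postsynaptic density, had 6.32, 7.19, 5.18, 3.65 and 5.41 CPM in *rhy*, against 31.4, 23.04, 29.6, 22.6 and 30.3 CPM in *com* (log2 fold change -2.30, SE 0.19, adjusted p = 2.78e-06). *SYNGR3* and *DLGAP2*, both neuronal genes in other vertebrates, were thus called in opposite directions. *GRAMD2A*, which acts at contacts of the endoplasmic reticulum with the plasma membrane, had 1.12 to 3.34 CPM in *rhy*, against 5.85 to 11.2 CPM in *com* (log2 fold change -1.79, SE 0.32, adjusted p = 8.34e-04). *CADPS*, a factor that primes dense-core vesicles for calcium-dependent release, had 7.63, 8.02, 18.8, 10.9 and 10.7 CPM in *rhy*, against 12.7, 49.9, 18.7, 24.8 and 20.9 CPM in *com* (log2 fold change -1.18, SE 0.36, adjusted p = 0.0178). The *CADPS* levels overlapped and fish com121 was the highest, without which the log2 fold change was -0.78 and no longer called. It was not called in limma on TPM either (-0.83). *PACSIN3*, a membrane-bending protein of muscle, had 83.6 to 118 CPM in *rhy*, against 179.6 to 245 CPM in *com* (log2 fold change -1.07, SE 0.13, adjusted p = 4.53e-05), and without rhy50 it stood just short of the limit at -0.996, as it did on TPM at -0.90. The 5 genes not called had log2 fold changes of -0.49 to -0.11.

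The named cell adhesion and matrix genes were mostly lower in *rhy*, but the members with the highest CPM in *rhy* were higher. In *com*, *PCDH11* and *PTPRD*, both called lower (means of 39.7 and 39.1 CPM), stood beside *CD34* and *CLDN11* (40.5 and 32.9 CPM). Of 14 tested, 2 were called higher, 8 lower and 4 not, with a median log2 fold change of -1.98. *CD34*, a sialomucin known from vessel endothelium and stem cells, had 468, 517, 584, 539 and 611 CPM in *rhy*, against 40.2, 28.5, 37.5, 42.7 and 53.6 CPM in *com* (log2 fold change 3.75, SE 0.17, adjusted p = 4.70e-08). *CLDN11*, a claudin that builds tight junctions around myelin and Sertoli cells in mammals, had 127, 166, 155, 192 and 90.2 CPM in *rhy*, against 22.8, 39.7, 27.9, 33.2 and 40.9 CPM in *com* (log2 fold change 2.15, SE 0.22, adjusted p = 1.50e-05). These 2 genes took the sum of the list to 658 to 800.5 CPM in *rhy*, against 201 to 281 CPM in *com*, so that the sum and the median gene differed in direction. *PCDH11*, a protocadherin, had 0.799, 3.66, 0.404, 0.544 and 1.06 CPM in *rhy*, against 37.5, 7.18, 95.5, 16.7 and 41.4 CPM in *com* (log2 fold change -4.92, SE 0.76, adjusted p = 3.03e-04). The *com* fish alone spanned more than 10-fold for this gene, and rhy50 was the highest of the *rhy* fish. *PTPRD*, a receptor tyrosine phosphatase that helps to organise synapses, had 4.65, 6.29, 8.47, 5.59 and 5.87 CPM in *rhy*, against 29.8, 38.4, 38.1, 43.9 and 45.4 CPM in *com* (log2 fold change -2.66, SE 0.18, adjusted p = 5.79e-07). *CSMD3*, a large membrane protein with CUB and sushi domains, had 0.466 to 2.004 CPM in *rhy*, against 3.75 to 6.11 CPM in *com* (log2 fold change -2.34, SE 0.37, adjusted p = 3.28e-04), but its log2 fold change was -0.62 in limma on TPM and -0.68 on rescaled TPM, and it was not called there. *COL4A6*, a basement membrane collagen chain, had 0.74 to 1.87 CPM in *rhy*, against 4.43 to 7.84 CPM in *com* (log2 fold change -2.26, SE 0.28, adjusted p = 5.95e-05), and the second claudin, *CLDN7* of epithelial junctions, had 0.155 to 1.17 CPM in *rhy*, against 1.32 to 5.1 CPM in *com* (log2 fold change -2.17, SE 0.56, adjusted p = 0.00788). Both claudins were thus called, in opposite directions and at very different levels. *ADAMTS15*, a protease of matrix proteoglycans, (-2.16, adjusted p = 4.04e-04), *CYR61*, a secreted matricellular protein, (-1.90, adjusted p = 0.0366) and *PCDH15*, a cadherin of hair cell links, (-1.35, adjusted p = 0.0136) were also called lower, with overlap between the species for *CYR61* and *PCDH15*. The *CYR61* call was lost without any 1 of rhy50, rhy51, rhy52, rhy53, com104 and com125 (adjusted p of 0.0559 to 0.105). The *PCDH15* call was lost without com104 (-0.90) and on TPM (-0.64). *MGP*, an inhibitor of calcification, (0.58, adjusted p = 0.363) and *LSR*, a protein of tricellular junctions, (-0.16, adjusted p = 0.386) were not called.

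Among transcription regulators, the nuclear receptor *NR4A1* had the largest difference of all named genes. It is an immediate early gene in other vertebrates, switched on within a short time by stimuli such as nerve activity or stress, and it had 2.32, 1.87, 11.4, 6.13 and 11.7 CPM in *rhy*, against 897, 3359, 2813, 2773 and 2622 CPM in *com* (log2 fold change -8.54, SE 0.66, adjusted p = 1.86e-06). Every *com* fish lay far above every *rhy* fish, with com104 the lowest of the *com* fish. Of 14 regulators tested, 1 was called higher in *rhy*, 5 lower and 8 not, with a median log2 fold change of -0.57. *SMAD3*, which carries TGF-beta signals to the nucleus, had 0.872, 0.0691, 1.35, 1.55 and 0.659 CPM in *rhy*, against 2.83, 7.65, 5.66, 11.5 and 11.7 CPM in *com* (log2 fold change -3.12, SE 0.55, adjusted p = 7.71e-04). *MYOCD*, a coactivator of serum response factor in smooth and heart muscle, had 0, 0.829, 0.269, 0 and 0 CPM in *rhy*, against 2.48, 4.15, 2.11, 2.16 and 2.48 CPM in *com* (log2 fold change -3.53, SE 0.84, adjusted p = 0.00495), with 3 of 5 *rhy* fish at 0. *SNAI3*, a repressor of the Snail family, had 0 to 0.291 CPM in *rhy*, against 0.567 to 3.19 CPM in *com* (log2 fold change -3.52, SE 0.68, adjusted p = 0.00131). *MYOCD* and *SNAI3* passed the filter through *com* libraries alone. *SOX11*, a factor of neural progenitors, had 2.03, 3.59, 3.63, 1.94 and 4.22 CPM in *rhy*, against 20.9, 9.73, 9.35, 8.86 and 4.73 CPM in *com* (log2 fold change -1.80, SE 0.37, adjusted p = 0.00208), with a narrow gap between the species. *ELP3*, the catalytic subunit of the Elongator complex that modifies tRNA, was the gene called higher, with 40.9, 42.5, 41.9, 44.5 and 45.9 CPM in *rhy*, against 12.1, 14.4, 17.5, 14.9 and 20.3 CPM in *com* (log2 fold change 1.45, SE 0.13, adjusted p = 7.53e-06). *HMGB3*, a chromatin protein, (0.94, adjusted p = 1.25e-04) and *ANKRD11*, a chromatin regulator, (-0.97, adjusted p = 1.90e-04) did not overlap but stayed under the fold limit. Without com123 or com124 *HMGB3* stood at 1.01 and was called, as it was on TPM at 1.10 but not on rescaled TPM. *ANKRD11* was called at -1.03 to -1.01 without any 1 of rhy50, rhy51, com121 and com125. *RYBP*, a Polycomb protein, had 1.45 to 5.59 CPM in *rhy*, against 1.48 to 4.69 CPM in *com* and *MEF2D*, a muscle regulator, had 0.553 to 2.49 CPM in *rhy*, against 1.23 to 3.03 CPM in *com*, and neither was called (0.11 and -0.88 on the log2 scale). Without rhy52, the highest *rhy* fish for *MEF2D*, its log2 fold change was -1.29 (adjusted p = 0.0219) and past the limits.

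Receptors and signalling genes moved in both directions, with an adrenergic receptor among those higher in *rhy*. A zinc-sensing and a tyrosine kinase receptor were called higher too, but both passed the filter through *rhy* libraries alone. Of 19 tested, 6 were called higher, 4 lower and 9 not, with a median log2 fold change of -0.12. *ADRA2B*, an alpha-2 adrenergic receptor coupled to inhibitory G proteins, had 45.98, 58.9, 59.4, 74.6 and 65.8 CPM in *rhy*, against 1.15, 2.46, 3.03, 2.39 and 5.32 CPM in *com* (log2 fold change 4.43, SE 0.31, adjusted p = 8.14e-07). *GPR39*, a zinc-sensing G protein-coupled receptor, had 3.12, 6.22, 3.3, 9.16 and 3.96 CPM in *rhy*, against 0.0885, 0, 0, 0.114 and 0 CPM in *com*. Its 2 counts in all *com* fish against 360 in *rhy* give a 118-fold ratio with a 95% counting interval of 32.5 to 980.0 (adjusted p = 9.17e-06). *GPR39* passed the filter through *rhy* libraries alone. *MST1R*, the receptor tyrosine kinase RON, had 1.96, 2.9, 1.14, 2.33 and 1.85 CPM in *rhy*, against 0.266, 0.283, 0, 0 and 0.237 CPM in *com* (log2 fold change 3.53, SE 0.62, adjusted p = 6.94e-04). *SHC4*, a docking protein for growth factor receptors, had 6.32, 31.3, 21.5, 15.1 and 9.89 CPM in *rhy*, against 0.974, 1.61, 1.45, 1.93 and 3.31 CPM in *com* (log2 fold change 3.19, SE 0.46, adjusted p = 1.78e-04). *CHRD*, which encodes chordin, a secreted BMP antagonist, had 224, 224, 215, 243 and 240.2 CPM in *rhy*, against 61.1, 79.98, 75.6, 70.2 and 100.3 CPM in *com* (log2 fold change 1.57, SE 0.13, adjusted p = 3.16e-06). The second BMP antagonist, *NOG2*, a noggin, had 1.82 to 4.17 CPM in *rhy*, against 2.63 to 11.8 CPM in *com* and was not called (-0.93, adjusted p = 0.104). *PDE6A*, a cyclic GMP phosphodiesterase subunit of rod photoreceptors, was called lower with 0, 0, 0.135, 0.155 and 0 CPM in *rhy*, against 0.974, 3.3, 6.06, 4.999 and 5.68 CPM in *com* (log2 fold change -5.96, SE 0.76, adjusted p = 7.73e-05). Both gene models of *ADGRA1*, an adhesion G protein-coupled receptor, were called lower at -2.15 and -1.99 on the log2 scale, with no overlap between the species. *MST1R* passed the filter through *rhy* libraries alone, and *PDE6A* through *com* libraries alone. The 9 genes not called had log2 fold changes of -1.48 to 0.52.

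The lipid genes that the study's tables name were lower in *rhy* with 1 exception, and most were chosen for a link to EOD duration. Of 7 tested, 6 were called lower, none higher and 1 was not called, and the median log2 fold change was -2.03. *PLA2G4AB*, a cytosolic phospholipase A2 that frees fatty acids from membranes, had 9.08, 7.67, 13.7, 7.61 and 6.92 CPM in *rhy*, against 95.1, 76.1, 61.5, 112 and 53.4 CPM in *com* (log2 fold change -3.14, SE 0.25, adjusted p = 2.18e-06). *FADS6*, a member of the fatty acid desaturase family, had 8.72, 12.99, 9.95, 13.5 and 19.3 CPM in *rhy*, against 99.3, 71.6, 70.7, 70.2 and 67.2 CPM in *com* (log2 fold change -2.55, SE 0.21, adjusted p = 3.00e-06). *OSBPL1A*, an oxysterol-binding protein, had 15.3, 29.99, 22.8, 31.1 and 12.9 CPM in *rhy*, against 111, 97.7, 107, 95.6 and 96.02 CPM in *com* (log2 fold change -2.18, SE 0.23, adjusted p = 1.77e-05). These 3 genes showed no overlap between the species, which was a condition for naming them. *CPT2*, which carries fatty acids into mitochondrial oxidation, had 16.7, 12.8, 12.7, 12.6 and 18 CPM in *rhy*, against 36.4, 43.8, 20.2, 26.02 and 35.5 CPM in *com* (log2 fold change -1.15, SE 0.20, adjusted p = 7.74e-04), and the gap between its highest *rhy* and lowest *com* fish was small. On TPM *CPT2* stood at -0.90 and was not called, while on rescaled TPM its call held. *HPGD*, which breaks down prostaglandins, had 0.198 to 1.31 CPM in *rhy*, against 2.05 to 3.56 CPM in *com* (log2 fold change -2.03, SE 0.41, adjusted p = 0.00187), and *ABHD6*, a monoacylglycerol lipase, had 0.528 to 1.4 CPM in *rhy*, against 1.58 to 4.78 CPM in *com* (log2 fold change -1.63, SE 0.38, adjusted p = 0.00451). *HPGD* passed the filter through *com* libraries alone. *LPL*, the lipoprotein lipase that takes up circulating fat, had 107, 107, 91.8, 78.1 and 130.1 CPM in *rhy*, against 112, 92.1, 83.1, 94.2 and 139 CPM in *com* and was not called (log2 fold change -0.018, SE 0.17, adjusted p = 0.941). The summed level of the list was 145 to 188 CPM in *rhy*, against 347 to 462 CPM in *com*.

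Of 11 other enzymes tested, 3 were called higher in *rhy*, 3 lower and 5 not, with a median log2 fold change of 0.24. *EGLN3*, a prolyl hydroxylase that marks the hypoxia factor HIF for breakdown, had 948, 986, 925, 1125 and 1155 CPM in *rhy*, against 2622, 4404, 6160.5, 7027 and 6092 CPM in *com* (log2 fold change -2.36, SE 0.24, adjusted p = 1.37e-05). The species did not overlap, and com104 was the lowest *com* fish. *HIF1AN*, the asparaginyl hydroxylase of the same pathway, had 20.6 to 27.1 CPM in *rhy*, against 18.1 to 26.9 CPM in *com* and was not called (0.034, adjusted p = 0.852). *PPP1R3A*, which targets protein phosphatase 1 to glycogen in muscle, had 55.6, 60.2, 71.4, 83.8 and 57.9 CPM in *rhy*, against 249, 217, 245, 296 and 226 CPM in *com* (log2 fold change -1.91, SE 0.14, adjusted p = 1.19e-06). *OGT*, which adds O-GlcNAc to proteins, had 152 to 184 CPM in *rhy*, against 294 to 412 CPM in *com* (log2 fold change -1.04, SE 0.12, adjusted p = 2.81e-05), and was not called without com104 (-0.96) or on TPM (-0.88). On the other side, *TYRP1*, a melanosome enzyme, had 32.8, 25.6, 13.7, 41.1 and 26.2 CPM in *rhy*, against 0.266, 1.32, 0.132, 1.02 and 0.591 CPM in *com* (log2 fold change 5.33, SE 0.45, adjusted p = 3.78e-06), while *SDR39U1*, of the short-chain dehydrogenases, had 5.45, 4.28, 3.23, 3.03 and 4.62 CPM in *rhy*, against 0.797, 0.661, 0.395, 0.114 and 0.591 CPM in *com* (log2 fold change 2.95, SE 0.39, adjusted p = 9.02e-05). *DUOX1*, an NADPH oxidase that makes hydrogen peroxide, had 1.82, 0.553, 0.807, 0.544 and 0.923 CPM in *rhy*, against 0 CPM in all 5 *com* fish. With 66 counts in *rhy* and none in *com*, and a floor of 3 counts over the *com* group, its level was at least 14.5-fold higher in *rhy* (adjusted p = 0.00144). *TYRP1*, *SDR39U1* and *DUOX1* passed the filter through *rhy* libraries alone.

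**Figure D4:**
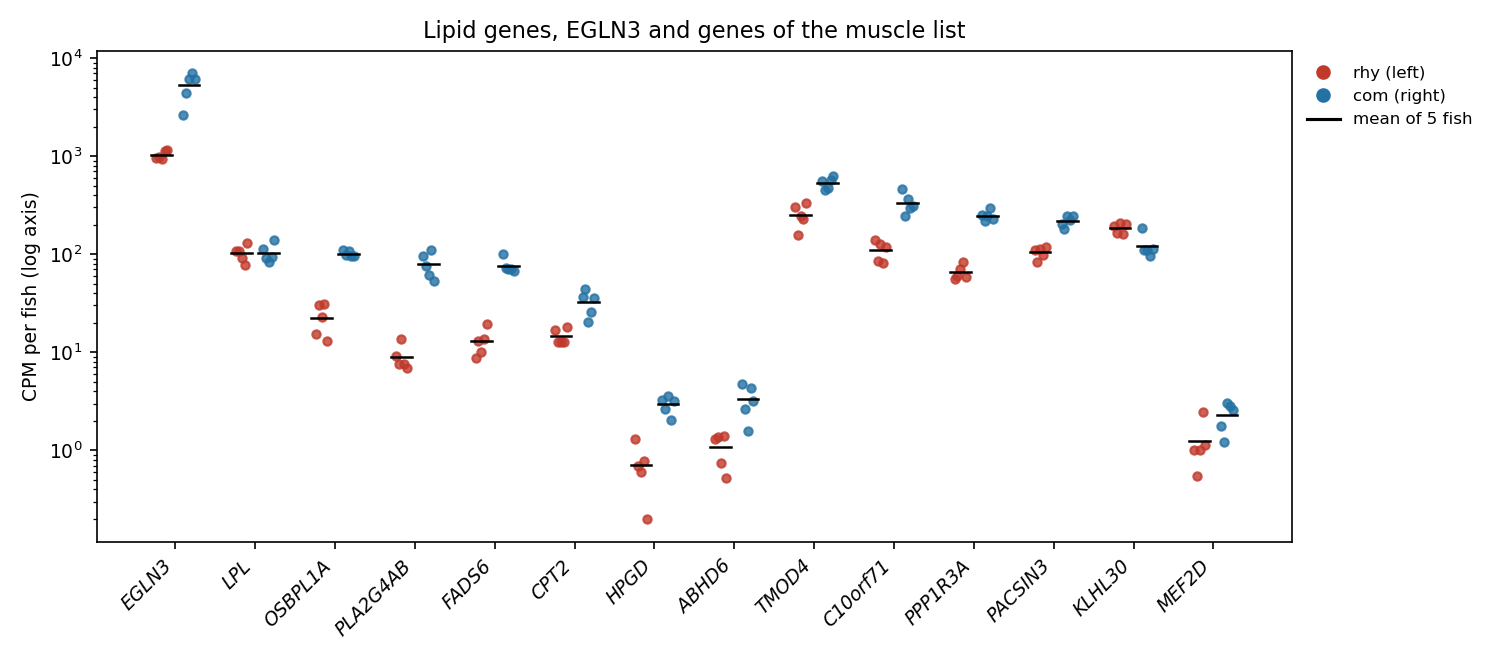
CPM per fish (y axis, log scale) is plotted for *EGLN3*, the 7 lipid genes and the 6 genes of the muscle list, with the 5 *rhy* fish to the left and the 5 *com* fish to the right of each gene and a bar at the mean of 5 fish. *LPL* overlaps at 78.1 to 130.1 CPM in *rhy* and 83.1 to 139 CPM in *com*, while *FADS6* stands at 8.72 to 19.3 CPM in *rhy* and 67.2 to 99.3 CPM in *com*.

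The cytoskeleton genes called moved in both directions. Of 19 tested, 4 were called higher in *rhy*, 4 lower and 11 not, with a median log2 fold change of -0.15. The share called was 42.1%, beside 23.2% over all genes tested. *GSN*, gelsolin, which severs and caps actin filaments, had 201, 113, 258, 117 and 172 CPM in *rhy*, against 19.9, 66.4, 57.7, 72.4 and 81.6 CPM in *com* (log2 fold change 1.53, SE 0.34, adjusted p = 0.00331). *MYO5C*, a transport myosin, had 1.16, 0.967, 1.35, 0.854 and 1.06 CPM in *rhy*, against 0, 0.189, 0.132, 0 and 0.473 CPM in *com* (log2 fold change 2.73, SE 0.71, adjusted p = 0.00834), and on rescaled TPM it was just short of the fold limit and not called. *LCP1*, the actin bundler L-plastin of leukocytes, had 0, 0, 0, 0.0777 and 0 CPM in *rhy*, against 0.974, 1.32, 1.71, 2.27 and 2.25 CPM in *com*, a total of 1 count in *rhy* and 77 in *com*, which makes it 117-fold higher in *com* with a counting interval of 20.4 to 4690 (adjusted p = 4.78e-05). *MYO5C* passed the filter through *rhy* libraries alone, and *LCP1* and *DNALI1* through *com* libraries alone. *DNALI1*, an axonemal dynein light chain, had 0.581, 0.484, 0.874, 0.544 and 0.264 CPM in *rhy*, against 4.78, 15.4, 16.6, 24.7 and 15.1 CPM in *com* (log2 fold change -4.77, SE 0.44, adjusted p = 7.03e-06). *TMOD4*, the tropomodulin of skeletal muscle thin filaments, had 302, 156, 247, 231 and 331 CPM in *rhy*, against 553, 449, 469, 564 and 625 CPM in *com* (log2 fold change -1.07, SE 0.19, adjusted p = 7.05e-04), and without rhy50 it stood at -0.94 and was not called, nor on TPM at -0.91. *HIP1*, a clathrin and actin adaptor, had 145, 151, 113, 106 and 129.9 CPM in *rhy*, against 216, 199.8, 209, 238 and 193 CPM in *com* with no overlap, but its log2 fold change of -0.71 was under the limit. *KIF13B*, a kinesin, (0.25, adjusted p = 0.137) and *TUBB*, a beta tubulin, (0.18, adjusted p = 0.489) were not called.

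Of the 22 named genes outside these lists, 4 were called higher in *rhy*, 5 lower and 13 not, with a median log2 fold change of 0.0043. *TIMELESS*, a protein of replication fork protection, had 26.2, 34.3, 44.5, 39.1 and 43.0 CPM in *rhy*, against 94.2, 134, 192, 171 and 277 CPM in *com* (log2 fold change -2.21, SE 0.26, adjusted p = 4.26e-05), and *WDHD1*, another replication factor, had 0 to 0.264 CPM in *rhy*, against 0.885 to 2.48 CPM in *com* (log2 fold change -4.39, SE 0.89, adjusted p = 0.00181). *KIAA1257* was found at 2 counts in *rhy* and 66 in *com*, a ratio of 50.2-fold in favour of *com* with a counting interval of 13.4 to 424, and *TRIM39*, a ubiquitin ligase, at 2 and 54 counts, a ratio of 41.1-fold with an interval of 10.8 to 348. *WDHD1*, *KIAA1257* and *TRIM39* passed the filter through *com* libraries alone. *C18orf21* had 32.3, 15.3, 11.9, 19.8 and 20.5 CPM in *rhy*, against 1.06, 0.944, 1.32, 1.36 and 1.54 CPM in *com* (log2 fold change 4.01, SE 0.29, adjusted p = 1.19e-06), and *TMEM233*, a membrane protein, had 88.3 to 172 CPM in *rhy*, against 4.69 to 31.7 CPM in *com* (log2 fold change 3.17, SE 0.43, adjusted p = 1.19e-04). *PABPC4*, a poly(A)-binding protein, was abundant and called higher with 1032 to 1441 CPM in *rhy*, against 455 to 709 CPM in *com* (log2 fold change 1.17, SE 0.15, adjusted p = 6.17e-05). *NCL*, nucleolin, had 863 to 1108 CPM in *rhy*, against 453 to 527 CPM in *com* with no overlap and lay just under the limit at 0.98, with 1.01 to 1.02 and a call without any 1 of rhy49, rhy51 and com104, and 1.02 without a filter and 1.13 on TPM, both called. *MIPOL1* had 2.83 to 5.92 CPM in *rhy*, against 2.12 to 7.39 CPM in *com* and was not called (-0.036, adjusted p = 0.938).

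Among called genes with a mean above 10 CPM in the higher species and no overlap, the largest log2 fold changes were in models without a name. These models are given by their identifiers. The model maker-ptg000970l-augustus-gene-2.127 had 1103, 948, 909, 728 and 958 CPM in *rhy*, against 0.708, 0.378, 0.527, 0.568 and 0.591 CPM in *com*, a ratio of 1676-fold in counts. The model maker-ptg000085l-snap-gene-4.14 had 40.8, 31.9, 19.3, 43.1 and 36.5 CPM in *rhy*, against 0.0885, 0, 0, 0 and 0 CPM in *com*, where the single *com* count gives a ratio of 1589-fold with a counting interval of 285 to 62785. In the other direction, maker-ptg000160l-snap-gene-14.3 had 0 CPM in all 5 *rhy* fish, against 72.2, 68.6, 69.7, 78.9 and 81.6 CPM in *com*, at least 1753-fold higher in *com* by a floor of 3 counts over the *rhy* group. The model maker-ptg000102l-snap-gene-1.5 had 0 CPM in all 5 *rhy* fish, against 41.8, 50.2, 42.4, 51.2 and 44.1 CPM in *com*, at least 1091-fold higher in *com*. These models were picked for a large fold change and no overlap between the species, so their wide gaps describe that choice. By CPM, among the 20 most abundant models of each species, 12 were shared.

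Named genes of other cell types that an electric organ sample could hold were looked at in short lists, all taken from the same tables, so that defining markers of these cell types without a name there were not used here. Over all genes tested 13.6% were called lower in *rhy* and 9.6% higher, which is the background for the counts of these lists. Of 6 muscle genes, 4 were called lower in *rhy* (*PPP1R3A*, *C10orf71*, *PACSIN3* and *TMOD4*) and none higher, and the summed level was 548 to 828 CPM in *rhy*, against 1201 to 1650 CPM in *com*. The *PACSIN3* and *TMOD4* calls were lost without rhy50 and on TPM, but held on rescaled TPM. *C10orf71*, expressed in heart and skeletal muscle of mammals, had 139, 85.1, 126, 82.2 and 119 CPM in *rhy*, against 459, 243, 363, 298 and 312 CPM in *com* (log2 fold change -1.60, SE 0.20, adjusted p = 6.03e-05), while *KLHL30* had 161 to 209.7 CPM in *rhy*, against 96.01 to 184 CPM in *com* and was not called (0.60, adjusted p = 0.0134). The part of muscle content in the differences above was not tested. Of 5 genes of neurons, *SYNGR3* was called higher, *GRIA3*, *DLGAP2* and *SOX11* lower, and *BRSK2*, a neuronal kinase, was not called with 0.155 to 1.11 CPM in *rhy*, against 0.114 to 2.74 CPM in *com* (-0.76, adjusted p = 0.465). The neural sum, 318 to 422 CPM in *rhy* and 82.9 to 116 CPM in *com*, followed *SYNGR3* alone in direction. Of 3 vascular genes, *CD34* was called higher, *SCARF1*, a scavenger receptor of endothelium, lower with 16.1, 14.1, 18.2, 18.4 and 16.6 CPM in *rhy*, against 83.5, 44.6, 25.7, 22.04 and 20.1 CPM in *com* (log2 fold change -1.24, SE 0.35, adjusted p = 0.013), and *FGD5*, an endothelial exchange factor, was not called with 63.1 to 95.6 CPM in *rhy*, against 33.6 to 60.3 CPM in *com* (0.76, adjusted p = 0.00265). Without com104, *SCARF1* stood at -0.74 and was not called, nor on TPM at -0.80. Of 3 immune genes, *DOK2*, an adaptor of blood cells, was called higher with 2.7 to 4.87 CPM in *rhy*, against 0.568 to 1.84 CPM in *com* (log2 fold change 1.74, SE 0.34, adjusted p = 0.00145, and 0.99 with no call on rescaled TPM), *LCP1* lower, and *NLRP12*, a pattern recognition receptor, was not called (0.25, adjusted p = 0.0836). The immune list was at 50.9 to 65.9 CPM in *rhy* and 42.4 to 54.8 CPM in *com*. Most of this sum was *NLRP12* (46.8 to 62.1 CPM in *rhy* and 39.8 to 53.1 CPM in *com*). The filter removed the immune genes *SLAMF9* (0 counts in *rhy*, 32 in *com*) and *SIGLEC1* (13 and 9). It also removed the neural gene *NKX2.2A* (5 and 43). These counts are not scaled to library size, and the *rhy* libraries were larger. *LCP1* was at 0 in 4 of 5 *rhy* fish. *TYRP1*, the 1 pigment cell gene, was the reverse, close to 0 in *com*. What part vessels, nerves, blood or pigment cells had in these values was not tested.

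The called genes were spread over the assembly. Of 265 contigs with 20 or more genes tested, the share called was 0% to 64.0% with a median of 21.9%, and 171 contigs had more genes lower in *rhy* than higher while 61 had more higher. The highest share was on contig ptg000962l, where 16 of 25 genes were called, 11 higher and 5 lower, at a median log2 fold change of 0.85. On the contig with the next highest share 5 of 20 genes were called higher and 4 lower. The filter removed 12 entries of the study's tables, whose summed counts were 0 to 44 in *rhy*, against 9 to 43 in *com*. The sum was smaller in *rhy* for 9 of them and larger for 3. These sums are not scaled to library size and the *rhy* libraries were larger, so the 3 do not show a higher level in *rhy*.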

How the data were processed

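Electric organ RNA of 5 juvenile *rhy* and 5 juvenile *com* was analysed, 1 library per fish. The authors trimmed reads with Trimmomatic (version 0.39) and counted them per gene model of the *C. compressirostris* genome with RSEM. The aligner that RSEM used is not given in the sources used here. The deposited expected counts by RSEM, which are not normalized, were rounded to whole numbers. They can split reads among near-identical copies, so genes with paralogs (channels, claudins, protocadherins) are uncertain to that degree. The deposited TPM by RSEM served for ratios between genes and for alternatives on log2(TPM + 1).

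Of 26553 models with a count, 17514 that had over 10 counts in 2 or more of the 10 libraries were tested. The fit of these 10 libraries used edgeR version 4.0.16 in R version 4.3.3, with TMM scaling, the quasi-likelihood test and p-values adjusted after Benjamini-Hochberg across the 17514 genes. Every log2 fold change is *rhy* over *com*, its SE is derived from the test statistic, and all adjusted p-values come from this fit unless another is named. A gene was called at an adjusted p below 0.05 with a log2 fold change past 1 in size. Single values were compared by exact two-sided permutation tests over 252 assignments, where the smallest p is 0.00794. Folds against a group with 1 to 3 counts have a 95% counting interval, and those against 0 counts use a floor of 3 for the whole group, both for counting error alone. The fit was tested on simulated data, and no 2 libraries of a species were copies.

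Names were read from the study's tables, whose identifiers carry character errors: 152 of 157 entries matched a model, 147 symbols were legible and 140 entries were tested. Named are the study's main candidate genes, other genes its text names, the 4 called genes per functional list with the largest change and no overlap, all genes of the cell type lists, and 2 unnamed models in each direction. Some genes that fall under this rule are not reported here, and other genes were named after their values were seen. The members, lists and tests were chosen with earlier results of these data known. The labels name no batch. Also tried were DESeq2 version 1.42.0, its size factors and the upper quartile in edgeR, no filter and filterByExpr, an effective length offset, all 15 libraries, thinned counts, limma (version 3.58.1) on TPM, other call limits and leaving out each fish. Python version 3.11.15 was used with matplotlib 3.10.9, scipy 1.17.1, pandas 2.3.3 and numpy 2.4.6.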

Additional observations from a re-analysis of the deposited data

Results flagged for a closer look

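In 14 of the 184 groups of 5 fish tested, 1 fish stood apart from the other 4. The groups cover the genes named above, the 4 unnamed models and the library measures. Chance gives such a gap in about 1 of 20 groups of normally distributed values, which CPM near 0 are not. The 14 of 184 can therefore not be set against that rate. Fish com104 stood apart from the other *com* fish in 5 of these 14 groups. It had 362 CPM of *KCNJ2*, against 109 to 175 CPM in the others, 4819 CPM of *SCN4AA*, against 2625 to 3229 CPM, 99.3 CPM of *FADS6*, against 67.2 to 71.6 CPM, and 184 CPM of *KLHL30*, against 96.0 to 113 CPM. It also held the single *com* count of maker-ptg000085l-snap-gene-4.14 (0.0885 CPM, the others at 0). Fish com121 had 2.74 CPM of *BRSK2*, against 0.114 to 0.71 CPM in the other *com* fish, and 4.15 CPM of *MYOCD*, against 2.11 to 2.48 CPM. Fish rhy50 had 3.66 CPM of *PCDH11*, against 0.404 to 1.06 CPM in the other *rhy* fish, 36.5 CPM of *MGP*, against 12.4 to 17.9 CPM, and 0.691 CPM of *SLC8A1*, against 0 to 0.0777 CPM. Fish rhy49 had 11.8 CPM of *CYR61*, against 0.544 to 3.23 CPM. At counts of a few reads, *KIAA1257* was found in rhy51 alone (0.135 CPM), *LCP1* in rhy52 alone (0.0777 CPM) and *WDHD1* in rhy53 alone (0.264 CPM), with the other *rhy* fish at 0.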

How the results depend on the processing

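Over the 86 gene models named by symbol, 1641 values under the alternatives kept their direction and side of the limits, 37 were no longer called, 13 became called and 19 changed sign, the last in genes not called in the first place. The number of calls was 3248 to 4500 under the alternatives that keep both limits, and without the fold limit it was 7794 (3700 higher and 4094 lower, 47.47% higher). On log2(TPM + 1) in limma 1498 genes were called lower and 55.24% of the calls were higher, and on rescaled TPM, an alternative chosen after seeing the data, 44.15% were higher. *PACSIN3*, *TMOD4*, *OGT* and *CPT2*, not called on TPM, were called on rescaled TPM. *HMGB3* and *NCL*, called on TPM, were not called on rescaled TPM. *CADPS*, *NALCN*, *SLC8A1*, *SCARF1*, *CSMD3* and *PCDH15* were called on neither. Leaving out 1 fish at a time gave 3790 to 4220 calls, 40.7% to 43.2% of them higher. *MIPOL1* turned positive without a filter (0.00832), on TPM (0.149), on rescaled TPM (0.0122) and without rhy50, com124 or com125 (0.053 to 0.164), and leaving out 1 fish gave -0.21 to 0.164. Leaving out rhy52 or com124 turned *RYBP* to -0.168 and -0.0581 (range over all fish -0.168 to 0.36), and leaving out com121 turned *BRSK2* to 0.443 (range -1.27 to 0.443). *LPL* turned positive without a filter (0.0234) and on TPM (0.144), with -0.117 to 0.107 on leaving out 1 fish, and *HIF1AN* turned negative on thinned counts (-0.0095), with -0.041 to 0.0938 on leaving out 1 fish. The causes were not tested. No paired analysis was made, because the labels pair no *rhy* fish with a *com* fish. Among the genes under 1.97 CPM the median SE was 0.58 on the log2 scale, beside 0.133 among those above 44.4 CPM, which limits what can be called at low levels.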

Other observations

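Contig ptg000962l, with 16 of 25 genes called, and contig ptg000024l, which carries the most abundant model, with 6 genes higher and 4 lower of 25 tested, were looked at after their values were seen. The most abundant model itself was called lower in *rhy* (log2 fold change -1.71, SE 0.40, adjusted p = 0.00416), although com104 lay within the *rhy* range.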
